A study of Mus musculus with 9 samples.

Results

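Interferon-induced genes are the genes that cells switch on when interferons bind their receptors. They were followed in whole mouse lung as a list of 44 targets of type I and type II interferon, without chemokines and MHC genes. Members were found as probe sets, the groups of short probes that read a transcript on the array, whose single gene symbol in the platform annotation is one of the 44. Of the 44 genes, 40 had such a probe set, and they had 62 of the 45101 probe sets of the array. Isg15 and Tgtp1 are named only on probe sets shared with another gene, and Gbp5 and Ifi44 are named on no probe set in the annotation used. A probe set was tested where its signal lay above the median of its own array on at least 3 of 9 arrays, which 11984 of 18193 genes passed, among them 38 of the 40. Mx2 and Dhx58 did not pass. Of the 38, 34 were above the median on all 9 arrays, the other 4 (Oas3, Oasl1, Mx1 and Zbp1) on fewer, and 0 passed through the arrays of 1 group alone. The brightest tested probe set stood for a gene with more than 1.

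The lungs came from 9 female C57BL/6 mice aged 14 weeks, with 1 array per mouse and 3 mice per group, each mouse having received an adenovirus unable to replicate by the intratracheal route 14 days before. AdV-NULL, without a cytokine gene, is the control. AdV-IL4 carried mouse IL-4, the cytokine of type 2 immune responses, and AdV-IL4d2 carried mouse IL-4d2, an alternatively spliced form of it. All 3 groups, controls included, had therefore been given virus, and no lung without virus was analysed here. The promoter that drove the cytokine genes and the cells that took up virus are not given in the sources used here. The comparisons address how each form of IL-4 changed the infected lung and whether the forms differed. Each label names a separate mouse, so p-values measure the spread between these mice, and the number of arrays limits the precision. In RNA of whole lung, more cells of a type and more RNA per cell cannot be told apart.

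Type I interferons act through a receptor on nearly all cells and activate a complex with STAT2 and IRF9 that binds the interferon-stimulated response element (ISRE) in promoters. Interferon-gamma, the type II interferon made by T cells and natural killer cells, acts on promoters through the gamma-activated site (GAS) and induces the factor IRF1, which binds ISRE-like elements in turn. The induced genes encode sensors and destroyers of viral RNA, proteins that block viral entry or budding, the transcription factors that sustain the response, and families of GTPases that act on microbes inside cells.

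Both kinds of element were common near the starts of these genes. RefSeq promoters of the build GRCm38.p6, covering 250 bases before to 50 bases after a gene start, were listed for 34 of the 44 genes (41 promoters). Usp18, Oas2, Iigp1, Parp14, Mx1, Parp9, Dhx58, Mx2, Ifi27 and Zbp1 have no entry. The letters of the ISRE core (GAAA, any 2 bases, then GAAA) were found on either strand in 20 of the 34 genes (58.8%), against 3.99% of the 27025 genes with a listed promoter. The GAS letters TTCNNNGAA, which read the same on both strands, were found in 14 of 34 (41.2%), against 9.55% of all genes. Of the 29 matches of the ISRE core in these promoters, 2 overlapped a GAS match. The 12 members most often named as interferon-gamma targets are Irf1, Irf8, the immunity-related GTPases and the guanylate-binding proteins. Of the 11 of them with a promoter, 8 held the ISRE core (72.7%) and 7 a GAS (63.6%), against 12 (52.2%) and 7 (30.4%) of the 23 other members. A match describes letters in this window and is no measure of binding.

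**Figure D1:**
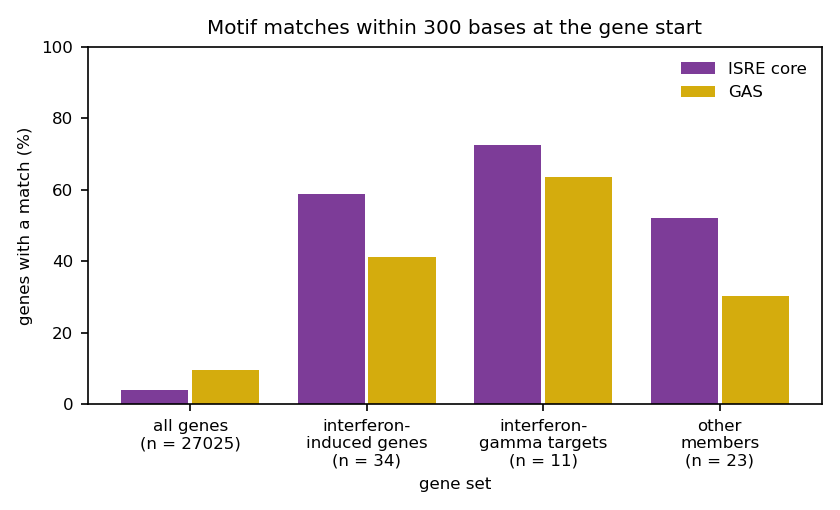
Percent of genes (vertical axis) with a match of the ISRE core or the GAS within 300 bases at a gene start, for all 27025 genes with a listed promoter, the 34 interferon-induced genes, the 11 interferon-gamma targets among them and the 23 others. The ISRE core is in 58.8% of the interferon-induced genes and 3.99% of all genes.

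With IL-4, 8 of the 38 tested interferon-induced genes rose against control virus: the antiviral RNA synthetases Oas1a, Oas2 and Oasl2, the immunity-related GTPases Igtp, Irgm2 and Iigp1, the transcription factor Irf1 and the ADP-ribosyltransferase Parp14. The rises ran from 1.36-fold for Irf1 to 1.82-fold for Oas2. By limma, with p-values adjusted over all 23824 tested probe sets and a threshold of 0.05, that was 21.1% of the members, against 13% of all genes called in either direction, 6.34% of them higher and 6.63% lower. Of the members 0 were called lower. At an unadjusted p under 0.05, 16 were higher and 0 lower (42.1%, against 28.9% of all genes). The median log2 difference of the 38 was 0.36, against -0.02 for all genes tested, and 29 of 38 were positive (76.3%, against 47.4% of all genes). In 13 members every IL-4 mouse lay above every control mouse (34.2%, against 14.9% of all genes), and in 1, the RNA sensor Ddx58, every IL-4 mouse lay below (2.63%, against 17%).

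The interferon-gamma targets held 4 of the 8 calls. Of their 10 tested genes 4 were called (40%, against 6.34% of all genes higher) and 10 of 10 were positive, with a median log2 difference of 0.46. In 6 of the 10 the groups did not overlap on the higher side (60%, against 14.9% of all genes). Of the 28 other members 4 were called (14.3%), with a median of 0.13, and groups did not overlap on the higher side in 7 (25%). With IL-4d2 the medians were 0.28 and 0.25, with 0 of the 10 and 1 of the 28 called (3.57%, against 0.859% of all genes higher). Groups did not overlap on the higher side in 1 and 9 (10% and 32.1%, against 11.4% of all genes). All directions are relative to the typical gene of an array, since scaling to the spiked hybridisation or poly-A control transcripts put the IL-4 difference of the median gene at -0.45 or -0.79. The count of 8 became 4 without control mouse 1, 4 without control mouse 3, 4 without IL-4 mouse 3 and 13 without control mouse 2. Shares of all genes called in those fits are not given here, so these moves cannot be set against them.

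With IL-4d2, Oas1a alone among the 38 rose by its brightest probe set, by 1.71-fold, which is 2.63% of the members against 1.26% of all genes called (0.859% higher, 0.401% lower). The other 37 did not pass. The median log2 difference of the 38 was 0.25, against -0.0011 for all genes, and 31 were positive (81.6%, against 49.8%). At an unadjusted p under 0.05, 15 members were higher and 1 was lower, together 42.1% of the members against 15.5% of all genes. Groups did not overlap in 10 members on the higher side (26.3%, against 11.4% of all genes) and in 1, again Ddx58, on the lower side (2.63%, against 11.3%). The same 3 control mice serve both comparisons, so the upward medians share them. The count of 1 became 0 without control mouse 1, control mouse 3, IL-4d2 mouse 2 or IL-4d2 mouse 3, and 6 without control mouse 2. For these fits too the share of all genes called is not given here.

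Set directly against each other, the forms differed in 0 of the 38 members by limma, against 2.24% of all genes called (1.18% higher with IL-4, 1.05% lower). At an unadjusted p under 0.05, 3 members were higher and 3 lower with IL-4, together 15.8% of the members against 18.5% of all genes. Every IL-4 mouse lay above every IL-4d2 mouse for Gbp2, Gbp3, Gbp7, Iigp1 and Parp14 (13.2% of members, against 11.1% of all genes). Every IL-4 mouse lay below for Ifi27, Ifitm3, Irf7, Isg20 and Rsad2 (13.2%, against 13%). The median log2 difference was 0.03, and 21 of 38 were positive (55.3%, against 46.4% of all genes). Both shares lie near those of all genes, and the count of 0 became 1, Ifi27 at -0.55, without IL-4 mouse 3. Centring each array on its median gave 1, Isg20. Scaling to the hybridisation or poly-A controls gave 18 and 38 members lower with IL-4, where 53.1% and 95.8% of all genes were called. The 10 interferon-gamma targets were all positive in this comparison, with a median of 0.23, while the 28 others had a median of -0.04 and 11 positive.

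**Figure D2:**
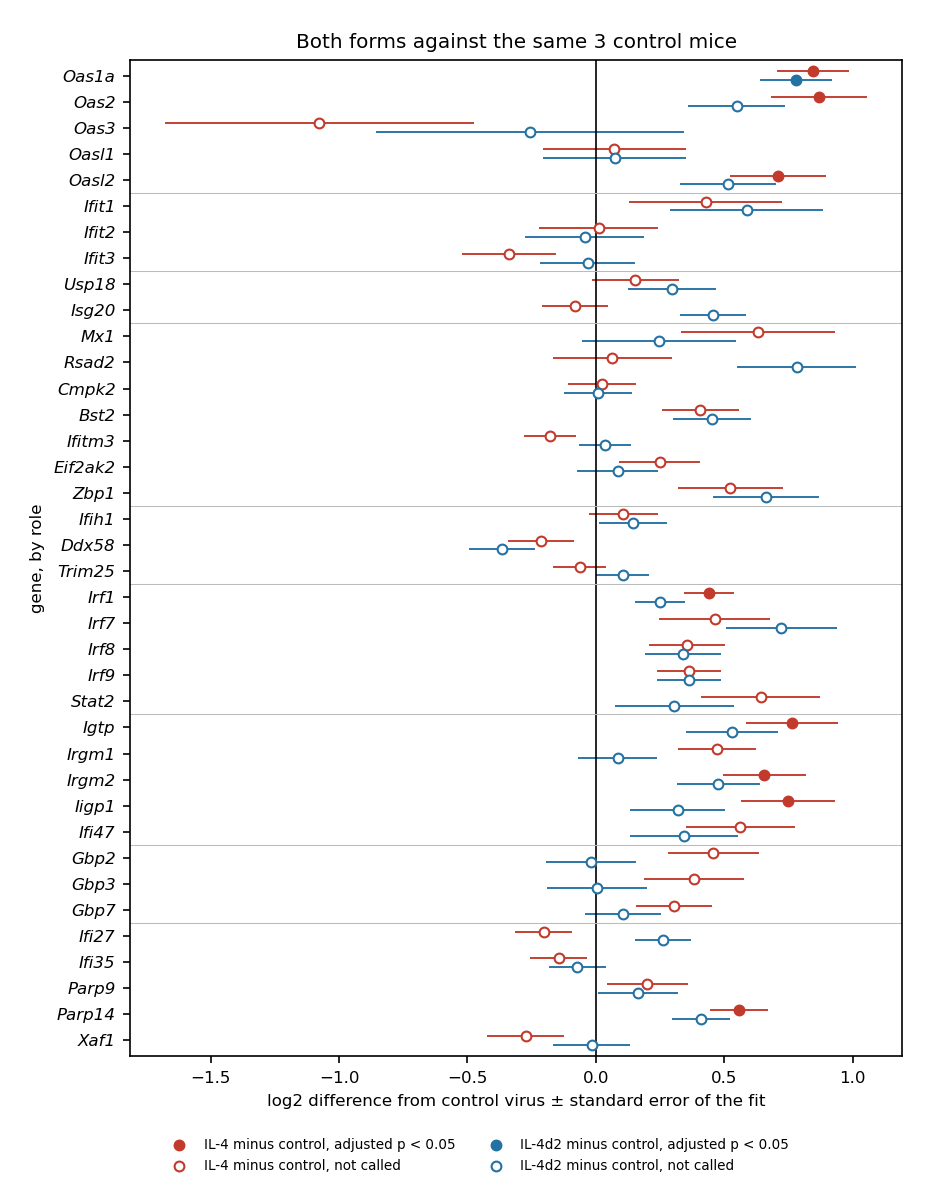
Log2 differences from control virus (horizontal axis, points, with standard errors of the fit as lines) for the 38 tested interferon-induced genes in order of role. Filled points passed the limma test: 8 genes with IL-4 (red) and Oas1a with IL-4d2 (blue), and both forms are set against the same 3 control mice.

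The control mice themselves stood apart in these genes. Control mouse 2 had the highest signal of the 3 controls in 31 of 38 members (81.6%, against 36% of all genes), and control mouse 1 had the lowest in 29 (76.3%, against 35.5%). The ratio of mouse 2 to mouse 1 had a median of 1.5 over the members and ran from 0.883 to 4.52. Taken as the median log2 deviation from the control mean, the members stood at -0.27, 0.28 and -0.01 in control mice 1 to 3. In the IL-4 mice they stood at 0.36, 0.22 and 0.36, and in the IL-4d2 mice at 0.31, 0.21 and 0.22. Control mouse 2 therefore lay within the range of the cytokine groups, and the median of all genes stayed between -0.01 and 0.01 in every lung. The within-group SD of log2 signal had a median of 0.32 for the members in control mice, against 0.14 for all genes, while in IL-4 mice it was 0.15 for both and in IL-4d2 mice 0.17 against 0.13.

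**Figure D3:**
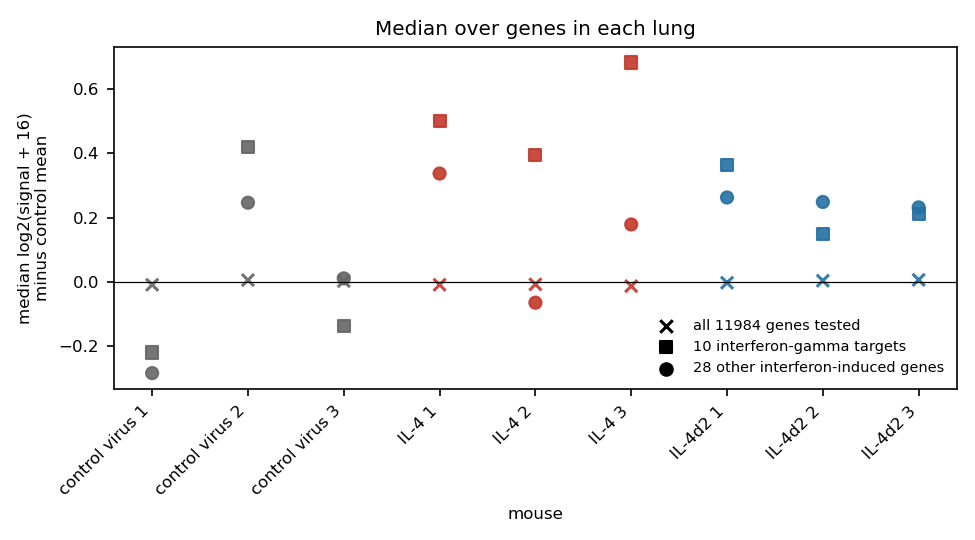
Median over genes of log2(signal + 16) minus the mean of the 3 control mice (vertical axis) in each of the 9 lungs, for the 10 interferon-gamma targets, the 28 other interferon-induced genes and all 11984 genes. Control mouse 2 lies among the cytokine mice, at 0.42 for the interferon-gamma targets, and control mouse 1 lies lowest, at -0.22.

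Muscle RNA also varied among the controls. The summed signal of 7 markers of skeletal and heart muscle was 68992, 17840 and 11748 in control mice 1 to 3, 5112, 1354 and 5384 in the IL-4 mice, and 15405, 4652 and 12602 in the IL-4d2 mice. All 7 were called lower with IL-4 and 0 of 7 with IL-4d2 (against 6.63% and 0.401% of all genes). With no filter on low values, 1 of the 7 was called lower with IL-4, against 557 of 18193 genes. Leaving out control mouse 1 and IL-4 mouse 2, the extremes of that sum, left 3 called members with IL-4 and 0 with IL-4d2. The share of all genes called in that fit is not given here. The part of muscle RNA in the interferon-induced genes was not tested. The gene carried by the cytokine viruses, Il4, checked the labels of control against cytokine mice. Its signal was at most 71.6 in control mice, at least 301 in IL-4 mice and at least 499 in IL-4d2 mice. The probe set was high with both forms, and their difference of -1.25 did not pass (limma adjusted p = 0.104). It is therefore no check of which form a mouse received.

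**Figure D4:**
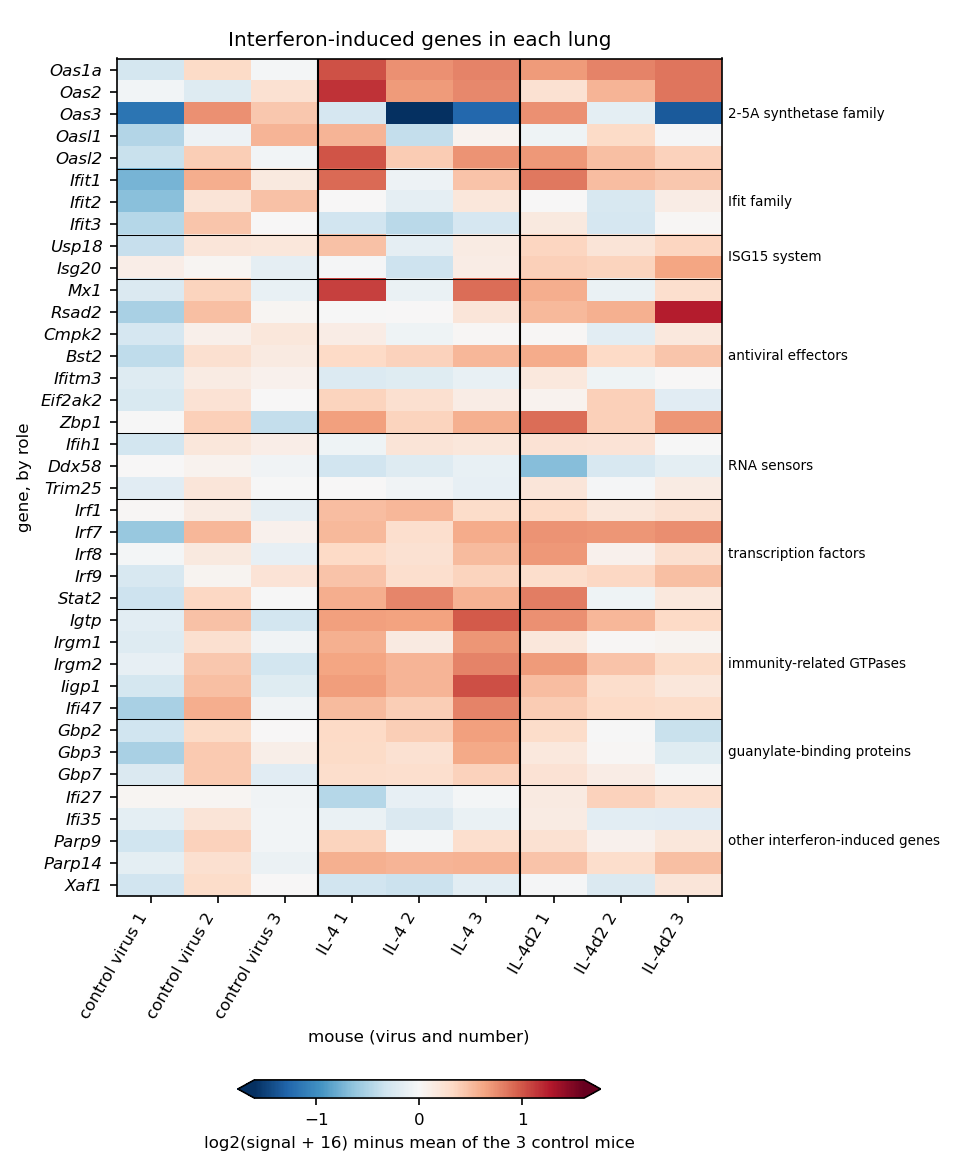
Log2(signal + 16) minus the mean of the 3 control mice (colour scale) for the 38 tested interferon-induced genes (rows, by role) in each of the 9 lungs (columns). Control mouse 1 is mostly blue and control mouse 2 mostly red, and the rows of Oas1a, Parp14 and the immunity-related GTPases are red across the IL-4 mice.

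The 2-5A synthetases make the short oligoadenylates that switch on the RNA-degrading enzyme RNase L. Of the 5 tested members of the family 3 rose with IL-4 and 1 with IL-4d2 (60% and 20%, against 6.34% and 0.859% of all genes). Oas1a, a catalytic member, had signals of 563, 851 and 670 in control mice, 1406, 1147 and 1195 in IL-4 mice and 1110, 1197 and 1255 in IL-4d2 mice. Every mouse given either form lay above every control mouse, and the forms overlapped. The log2 difference was 0.85 ± 0.14 (SE) with IL-4 (limma adjusted p = 0.00314) and 0.78 ± 0.14 with IL-4d2 (adjusted p = 0.0174), and the forms differed by 0.07 with a 95% interval from -0.24 to 0.37. The IL-4 call was kept in all 9 fits that leave out 1 array. The IL-4d2 call was absent with control mouse 1 (0.64) or 3 (0.76) left out, and with IL-4d2 mouse 2 (0.77) or 3 (0.74) left out.

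The Oas1a promoter is shown because this gene was called with both forms and holds the ISRE core at its start. It lies at chr5:120907476-120907775 on the minus strand, and the capitals mark 2 overlapping matches of the core, GAAATGGAAA and GAAACTGAAA, that begin 20 and 14 bases before the start.
Oas1a: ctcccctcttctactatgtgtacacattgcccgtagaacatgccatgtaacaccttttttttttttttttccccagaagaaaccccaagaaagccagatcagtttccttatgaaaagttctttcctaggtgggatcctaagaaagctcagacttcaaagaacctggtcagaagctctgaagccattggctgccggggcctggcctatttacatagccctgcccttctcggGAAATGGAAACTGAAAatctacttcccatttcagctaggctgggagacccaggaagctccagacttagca

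Oas2, a larger synthetase, had signals of 270, 238 and 333 in control mice, 641, 454 and 483 in IL-4 mice and 331, 414 and 515 in IL-4d2 mice. The IL-4 mice lay above all controls, while IL-4d2 mouse 1 lay within the control range. With IL-4 Oas2 rose 1.82-fold (0.87 ± 0.19 on the log2 scale, adjusted p = 0.0129), a call kept in all 9 fits with 1 array left out, and the IL-4d2 difference of 0.55 ± 0.19 did not pass (adjusted p = 0.197). Oasl2, an Oas-like protein with ubiquitin-like domains, had signals of 585, 989 and 729 in control mice, 1522, 1000 and 1243 in IL-4 mice and 1228, 1051 and 975 in IL-4d2 mice. Control mouse 2 came close to the lowest IL-4 mouse and lay above IL-4d2 mouse 3. Oasl2 rose 1.64-fold with IL-4 (0.71 ± 0.19, adjusted p = 0.0318), and its difference with IL-4d2 was 0.52 ± 0.19 (adjusted p = 0.22). That call was absent with control mouse 1 (0.53) or 3 (0.69) left out, and with IL-4 mouse 1 (0.56) or 3 (0.71) left out. It was also lost with no filter (adjusted p = 0.0572), with only the 2 groups compared (0.0603), with a prior without trend (0.0699) and with the replicate block (0.0501).

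The 2 dimmest members of this family did not pass in any comparison. Oasl1 had signals from 157 to 331 with all groups overlapping. Oas3 had 55.3, 250 and 199 in control mice, 116, 33.3 and 50.7 in IL-4 mice and 250, 127 and 46.8 in IL-4d2 mice. The groups overlapped, and it had the lowest log2 difference of all members with IL-4, -1.08 with a 95% interval from -2.38 to 0.23. Its brightest probe set exceeded the array median on only 3 of the 9 arrays, 0 of them from IL-4 mice.

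**Figure D5:**
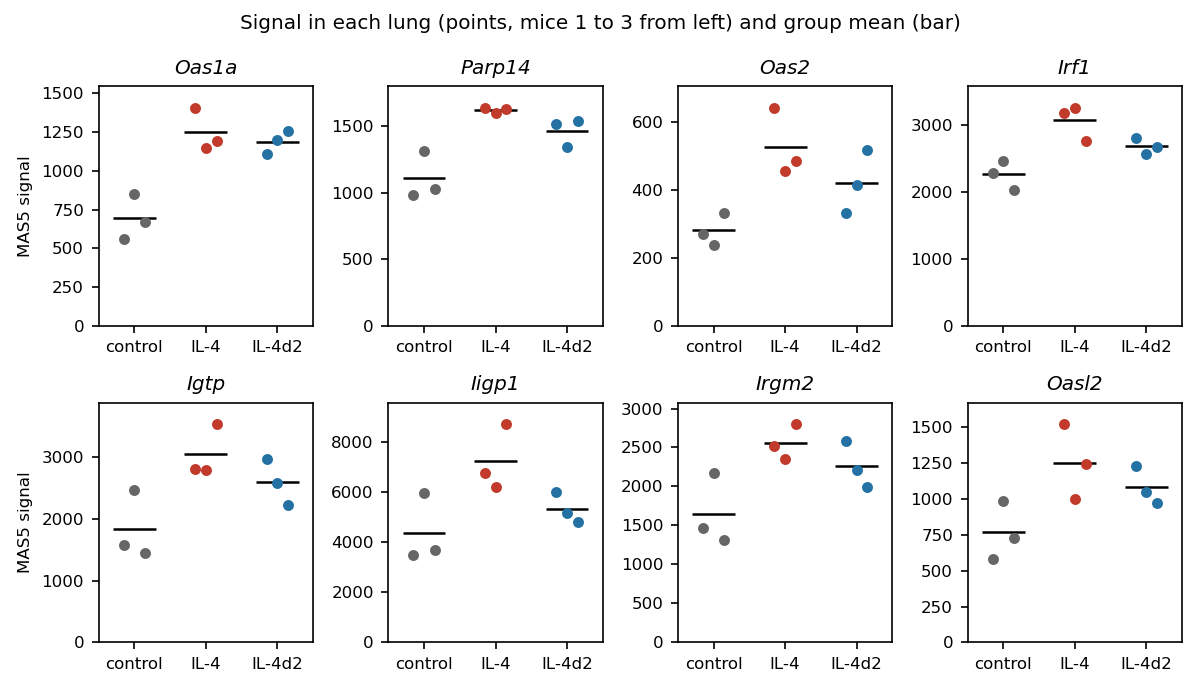
MAS5 signal (vertical axis from 0) of the 8 interferon-induced genes that rose with IL-4, in each of the 3 control, 3 IL-4 and 3 IL-4d2 mice (points, with the group mean as a bar). In all 8 the IL-4 mice lie above all 3 control mice, and in 3 of them (Oas1a, Irf1 and Parp14) the IL-4d2 mice do too.

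The Ifit proteins bind foreign RNA and block its translation, and 0 of the 3 tested members passed with either form. At an unadjusted p under 0.05 the count was also 0 (against 28.9% and 15.5% of all genes). Ifit3, the brightest, had signals of 1334, 2492 and 1845 in control mice, 1474, 1350 and 1520 in IL-4 mice and 2036, 1511 and 1861 in IL-4d2 mice. The IL-4 values fell inside the control range, and the log2 difference was -0.34 ± 0.18 (adjusted p = 0.272). Ifit1 had 627, 1595 and 1176 in control mice, 1998, 996 and 1459 in IL-4 mice and 1907, 1490 and 1427 in IL-4d2 mice. Its differences of 0.43 ± 0.30 with IL-4 and 0.59 ± 0.30 with IL-4d2 did not pass, and the control mice spanned much of the range. Ifit2 ranged from 670 to 1498 and differed by 0.01 with IL-4 and -0.04 with IL-4d2.

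The Ifit1 promoter, added after the values were seen, is set beside that of Oas1a because both hold 2 matches of the ISRE core while the gene was not called. It lies at chr19:34640639-34640938 on the plus strand, the capitals mark the matches, which are on the opposite strand and print as TTTCACTTTC and TTTCAGTTTC from 104 and 85 bases before the start, and 0 GAS matches were found.
Ifit1: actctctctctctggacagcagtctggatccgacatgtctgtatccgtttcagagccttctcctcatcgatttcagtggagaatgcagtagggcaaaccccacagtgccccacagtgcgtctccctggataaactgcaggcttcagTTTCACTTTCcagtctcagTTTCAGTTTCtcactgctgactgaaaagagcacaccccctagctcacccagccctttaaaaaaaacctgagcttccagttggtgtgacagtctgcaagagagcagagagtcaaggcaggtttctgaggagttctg

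Usp18, the protease that removes the ubiquitin-like protein ISG15 and dampens the type I receptor, had signals of 795, 1184 and 1171 in control mice, 1436, 934 and 1136 in IL-4 mice and 1315, 1192 and 1314 in IL-4d2 mice. Every IL-4d2 mouse lay above the controls, with control mice 2 and 3 close behind, and the difference of 0.30 ± 0.17 did not pass (adjusted p = 0.466). The exonuclease Isg20 showed 1096, 1032 and 918 in control mice, 997, 801 and 1097 in IL-4 mice and 1323, 1295 and 1578 in IL-4d2 mice. The IL-4d2 mice alone stood above the other lungs. The log2 difference of Isg20 was 0.45 ± 0.13 with IL-4d2 (adjusted p = 0.119), -0.08 ± 0.13 with IL-4 (adjusted p = 0.743) and -0.53 ± 0.13 between IL-4 and IL-4d2 (adjusted p = 0.0608). None of the 3 passed on the scale as deposited, and with each array centred on its median the last was -0.56 and did (adjusted p = 0.0379).

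Of the 7 tested antiviral effectors, 0 were called with either form by their brightest probe set. At an unadjusted p under 0.05, 2 were higher with IL-4 (28.6%, against 28.9% of all genes in either direction) and 3 with IL-4d2 (42.9%, against 15.5%). Ifitm3, a membrane protein that blocks viral fusion and the brightest member of all, had signals of 12953, 16471 and 15754 in control mice, 12873, 13071 and 13749 in IL-4 mice and 16821, 14270 and 15043 in IL-4d2 mice. The IL-4 mice lay below the IL-4d2 mice and overlapped the controls, with a log2 difference of -0.18 ± 0.10 from control virus (adjusted p = 0.291). Rsad2, or viperin, a radical enzyme that makes a chain-terminating nucleotide, had 699, 1411 and 1027 in control mice, 998, 1009 and 1151 in IL-4 mice and 1441, 1505 and 2418 in IL-4d2 mice. All IL-4d2 mice were above all others, and the difference of 0.78 ± 0.23 with IL-4d2 did not pass (adjusted p = 0.138), nor did -0.72 ± 0.23 between IL-4 and IL-4d2 (adjusted p = 0.147). Of its dimmer probe sets, one gave 0.83 and -0.79 for the same contrasts with no overlap, the other 0.67 and -0.41 with overlapping groups. The Rsad2 difference with IL-4d2 was 1.02 without control mouse 2 and then passed (adjusted p = 0.0433).

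Zbp1, a sensor of Z-form nucleic acid that triggers cell death, was read by probe sets that gave different calls. The brightest had signals of 219, 291 and 164 in control mice, 353, 285 and 331 in IL-4 mice and 421, 290 and 368 in IL-4d2 mice, and control mouse 2 overlapped both groups. Its differences were 0.52 ± 0.20 with IL-4 (adjusted p = 0.129) and 0.66 ± 0.20 with IL-4d2 (adjusted p = 0.152). A dimmer one, with 166, 297 and 155 in control mice and 456, 295 and 467 in IL-4 mice, was called with IL-4 at 0.96 ± 0.25 (adjusted p = 0.0329). That call was kept in 5 of the 9 fits with 1 array left out, where the difference ran from 0.79 to 1.23, and was absent with control mouse 1 (0.84) or 3 (0.79) left out, and with IL-4 mouse 1 (0.86) or 3 (0.84) left out. The brightest probe set passed only without control mouse 2 (0.72, adjusted p = 0.0488).

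Bst2, or tetherin, which holds budding virions at the cell surface, had signals of 953, 1514 and 1394 in control mice, 1578, 1640 and 1830 in IL-4 mice and 1910, 1583 and 1722 in IL-4d2 mice. Every mouse given a cytokine virus lay above every control, yet the differences of 0.41 ± 0.15 and 0.45 ± 0.15 did not pass (adjusted p = 0.109 and 0.185). Mx1, a dynamin-like GTPase, ranged from 163 to 254 in control mice, with 435, 179 and 377 in IL-4 mice and 299, 179 and 238 in IL-4d2 mice. Its IL-4 difference of 0.63 ± 0.30 passed only without IL-4 mouse 2 (adjusted p = 0.0296). Eif2ak2, the kinase PKR, and the nucleotide kinase Cmpk2 differed by 0.25 and 0.02 with IL-4 and by 0.08 and 0.01 with IL-4d2. Mx2, which failed the filter, had signals from 27.5 to 191.

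Among the cytoplasmic RNA sensors and Trim25, the ubiquitin ligase that activates RIG-I, 0 of 3 tested genes were called with either form. At an unadjusted p under 0.05 the count was 0 with IL-4 and 1 with IL-4d2 (against 28.9% and 15.5% of all genes). Ddx58, which encodes RIG-I itself, had signals of 1370, 1420 and 1310 in control mice, 1098, 1179 and 1257 in IL-4 mice and 843, 1145 and 1226 in IL-4d2 mice. All 6 cytokine mice lay below all 3 controls on this, its brightest probe set. The differences were -0.21 ± 0.13 with IL-4 (adjusted p = 0.324) and -0.36 ± 0.13 with IL-4d2 (adjusted p = 0.207). A dimmer Ddx58 probe set gave 0.05 and 0.04, with overlapping groups. Trim25 had 2303, 2995 and 2612 in control mice, 2632, 2511 and 2389 in IL-4 mice and 3007, 2594 and 2874 in IL-4d2 mice on its brightest probe set, with all groups overlapping. One dimmer Trim25 probe set gave -0.04 and 0.04, and another had 137, 138 and 121 in control mice against 266, 179 and 206 in IL-4 mice and 238, 245 and 207 in IL-4d2 mice. The cytokine and control mice did not overlap on the latter, which passed the filter through the 6 cytokine arrays and 0 control arrays. Its differences of 0.64 ± 0.20 and 0.73 ± 0.20 did not pass (adjusted p = 0.0572 and 0.0965). Ifih1, the sensor MDA5, differed by 0.11 and 0.14, and Dhx58, which failed the filter, had signals from 74.7 to 178.

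All 5 transcription factors had positive differences with both forms, and Irf1 passed the test with IL-4. Irf1, the factor through which interferon-gamma drives many of its targets, had signals of 2285, 2474 and 2037 in control mice, 3186, 3263 and 2773 in IL-4 mice and 2814, 2568 and 2682 in IL-4d2 mice. The cytokine mice lay above all controls, the IL-4d2 mice by a smaller margin. Irf1 rose 1.36-fold with IL-4 (log2 difference 0.44 ± 0.10, adjusted p = 0.0143), lost without control mouse 3 (0.36, adjusted p = 0.0558), and differed by 0.25 ± 0.10 with IL-4d2 (adjusted p = 0.258). Irf7, the factor that amplifies type I interferon production, had 349, 785 and 565 in control mice, 776, 654 and 820 in IL-4 mice and 894, 890 and 909 in IL-4d2 mice. The IL-4d2 mice lay close together above all other lungs, while control mouse 2 lay among the IL-4 mice. Its differences of 0.46 ± 0.22 with IL-4 and 0.72 ± 0.22 with IL-4d2 did not pass (adjusted p = 0.201 and 0.14). Without control mouse 2 they were 0.73 and 0.99 and both passed (adjusted p = 0.0289 and 0.0191).

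The Irf1 promoter, added after the values were seen, is shown as that of a called gene with a GAS and no ISRE core in the window. It lies at chr11:53769764-53770063 on the plus strand, and the capitals mark the GAS letters TTCCCCGAA, which begin 90 bases before the start.
Irf1: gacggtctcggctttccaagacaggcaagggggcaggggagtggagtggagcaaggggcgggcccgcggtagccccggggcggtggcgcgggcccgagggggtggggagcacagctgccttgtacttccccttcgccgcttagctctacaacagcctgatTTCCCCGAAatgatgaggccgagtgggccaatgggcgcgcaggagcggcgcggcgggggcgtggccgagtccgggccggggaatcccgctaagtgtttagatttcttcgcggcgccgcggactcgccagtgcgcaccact

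Irf9 and Stat2, which belong to the type I complex, and Irf8, a factor of macrophages and dendritic cells, did not pass. Irf9 had 735, 907 and 1034 in control mice, 1222, 1068 and 1132 in IL-4 mice and 1077, 1113 and 1236 in IL-4d2 mice, and every cytokine mouse lay above every control. Its difference was 0.36 ± 0.12 with each form (adjusted p = 0.0848 and 0.196), and the IL-4 one was 0.47 and passed without control mouse 3 (adjusted p = 0.0436). Stat2 had 172, 282 and 219 in control mice, 339, 392 and 331 in IL-4 mice and 400, 209 and 249 in IL-4d2 mice. The IL-4 mice alone were clear of the controls, with a difference of 0.64 ± 0.23 (adjusted p = 0.100). Irf8 differed by 0.35 ± 0.15 with IL-4 and 0.34 ± 0.15 with IL-4d2, and its IL-4 mice did not overlap the controls.

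The immunity-related GTPases, which interferon-gamma induces and which act on vacuoles that hold parasites or bacteria, held 3 of the 8 rises with IL-4. Of the 5 tested, 3 rose (60%, against 6.34% of all genes), and all 5 had an unadjusted p under 0.05 (against 28.9% of all genes). The median log2 difference was 0.66 with IL-4 and 0.34 with IL-4d2, where 0 were called and 2 had an unadjusted p under 0.05 (40%, against 15.5% of all genes). Igtp (Irgm3) had signals of 1576, 2467 and 1452 in control mice, 2816, 2797 and 3533 in IL-4 mice and 2971, 2582 and 2234 in IL-4d2 mice. The IL-4 mice lay above all controls, and IL-4d2 mouse 3 lay below control mouse 2. Igtp rose 1.70-fold with IL-4 (0.76 ± 0.18, adjusted p = 0.0192) and differed by 0.53 ± 0.18 with IL-4d2 (adjusted p = 0.192).

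Irgm2, a regulatory GTPase of the same family, had 1472, 2171 and 1311 in control mice, 2514, 2357 and 2797 in IL-4 mice and 2585, 2210 and 1995 in IL-4d2 mice. It followed the same order of mice as Igtp among the controls and rose 1.58-fold with IL-4 (0.66 ± 0.16, adjusted p = 0.0244). Iigp1 (Irga6), an effector that loads onto parasite vacuoles, had 3490, 5933 and 3696 in control mice, 6765, 6199 and 8688 in IL-4 mice and 5993, 5157 and 4808 in IL-4d2 mice. All IL-4 mice stood above all other lungs. Iigp1 rose 1.68-fold with IL-4 (0.75 ± 0.18, adjusted p = 0.0233), and the 0.43 by which the forms differed, with a 95% interval from 0.03 to 0.83, did not pass (adjusted p = 0.268). Its dimmer probe set was called with IL-4 too, at 0.88 ± 0.22 (adjusted p = 0.0281), in 5 of the 9 fits with 1 array left out, and lost the call with control mouse 1 (0.66) or 3 (0.79) left out, and with IL-4 mouse 1 (0.88) or 3 (0.75) left out.

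Each of these 3 calls was lost without control mouse 1, control mouse 3 or IL-4 mouse 3, where the differences were 0.67, 0.62 and 0.65 for Igtp, 0.59, 0.51 and 0.59 for Irgm2 and 0.61, 0.65 and 0.61 for Iigp1. The Irgm2 call was also lost without IL-4 mouse 1 (0.67, adjusted p = 0.0525). The uncalled GTPases were close behind. Irgm1 had 832, 1153 and 921 in control mice, 1425, 1058 and 1578 in IL-4 mice and 1090, 975 and 994 in IL-4d2 mice. IL-4 mouse 2 was below control mouse 2, and the difference of 0.47 ± 0.15 (adjusted p = 0.0697) passed without control mouse 2 (0.60) or without IL-4 mouse 2 (0.64). Ifi47 (Irg47) had 863, 1873 and 1192 in control mice and 1773, 1639 and 2163 in IL-4 mice, and its difference of 0.56 ± 0.21 (adjusted p = 0.114) was 0.85 and passed without control mouse 2 (adjusted p = 0.00567).

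The promoters of Igtp and Irgm2 are shown together because both genes rose with IL-4, hold the same ISRE core letters and 1 GAS match each and lie near each other on chromosome 11. The Igtp promoter is chr11:58199306-58199605 and that of Irgm2 chr11:58214727-58215026, both on the plus strand, with 15121 bases between them. An alignment paired 270 columns of which 244 were identical (90.4%). The capitals mark the ISRE core GAAACTGAAA, which begins 34 bases before the listed start of Igtp and 64 bases before that of Irgm2.
Igtp: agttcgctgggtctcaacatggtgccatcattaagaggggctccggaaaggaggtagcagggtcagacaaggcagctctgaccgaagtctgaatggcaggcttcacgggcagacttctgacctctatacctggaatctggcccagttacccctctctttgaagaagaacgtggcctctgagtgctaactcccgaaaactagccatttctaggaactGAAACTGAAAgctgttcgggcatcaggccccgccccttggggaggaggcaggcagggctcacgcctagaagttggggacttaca
Irgm2: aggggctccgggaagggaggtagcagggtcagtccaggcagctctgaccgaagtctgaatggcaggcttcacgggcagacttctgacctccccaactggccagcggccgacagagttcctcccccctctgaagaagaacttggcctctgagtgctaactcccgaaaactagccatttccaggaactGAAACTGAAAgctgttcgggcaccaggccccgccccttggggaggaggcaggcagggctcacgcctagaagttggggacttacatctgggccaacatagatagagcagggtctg

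The guanylate-binding proteins, larger GTPases that attack the membranes of intracellular microbes, were called in 0 of 3 tested cases in each comparison. In all 3 every IL-4 mouse lay above every IL-4d2 mouse (against 11.1% of all genes). Gbp7, the brightest, had signals of 2895, 4575 and 2998 in control mice, 4139, 4105 and 4417 in IL-4 mice and 4023, 3696 and 3328 in IL-4d2 mice. Control mouse 2 was the highest lung of all, and the IL-4 difference of 0.30 ± 0.15 (adjusted p = 0.218) was 0.52 and passed without it (adjusted p = 0.00819). Gbp2 had 2256, 3510 and 2842 in control mice, 3526, 3721 and 4456 in IL-4 mice and 3469, 2818 and 2206 in IL-4d2 mice. The IL-4 mice alone lay above the controls, and IL-4 exceeded IL-4d2 by 0.48 ± 0.18, with a 95% interval from 0.09 to 0.86 (adjusted p = 0.201). Gbp3 gave 0.38 for IL-4 against control virus, 0.00 for IL-4d2 and 0.38 between the forms. Only 1 of the 3, Gbp2, had an unadjusted p under 0.05 for IL-4 against control virus (33.3%, against 28.9% of all genes).

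Of the 5 remaining tested members, Parp14 rose with IL-4. Parp14, an ADP-ribosyltransferase that is also known as a coactivator of STAT6, the factor that IL-4 activates, had signals of 981, 1315 and 1025 in control mice, 1636, 1601 and 1625 in IL-4 mice and 1514, 1341 and 1538 in IL-4d2 mice. The 3 groups did not overlap, in the order control, IL-4d2, IL-4. Parp14 rose 1.47-fold with IL-4 (0.56 ± 0.11, adjusted p = 0.00972), kept in all 9 fits with 1 array left out, and differed by 0.41 ± 0.11 with IL-4d2 (adjusted p = 0.111). The IL-4d2 difference was 0.54 and passed without control mouse 2 (adjusted p = 0.0208). A dimmer Parp14 probe set gave 0.44 with IL-4, with the IL-4 mice above all controls, and did not pass (adjusted p = 0.127). Parp9, its partner in interferon signalling, differed by 0.20 ± 0.16 with IL-4 and 0.16 ± 0.16 with IL-4d2.

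Ifi27, a small protein of mitochondrial and nuclear membranes, read lower with IL-4 than with IL-4d2 on both its probe sets. Its brightest probe set had 2761, 2744 and 2587 in control mice, 1958, 2465 and 2648 in IL-4 mice and 2988, 3480 and 3251 in IL-4d2 mice. The IL-4d2 mice lay above all others, and IL-4 minus IL-4d2 was -0.46 ± 0.11 (adjusted p = 0.0586). A dimmer Ifi27 probe set had 1638, 1906 and 1833 in control mice, 1875, 1832 and 1926 in IL-4 mice and 2320, 2724 and 2583 in IL-4d2 mice, again with the IL-4d2 mice on top. It was called with IL-4d2 at 0.50 ± 0.09 (adjusted p = 0.0197) and between IL-4 and IL-4d2 at -0.43 ± 0.09 (adjusted p = 0.0376). The first call was absent with control mouse 1 (0.44) or 3 (0.52) left out, and with IL-4d2 mouse 2 (0.45) or 3 (0.49) left out. The second was lost without control mouse 3 (-0.43), IL-4 mouse 1 (-0.43), IL-4 mouse 2 (-0.41), IL-4 mouse 3 (-0.45), IL-4d2 mouse 2 (-0.38) or IL-4d2 mouse 3 (-0.42). Ifi35 and the apoptosis factor Xaf1 differed by -0.14 and -0.27 with IL-4 and by -0.07 and -0.02 with IL-4d2. In all, 17 dimmer probe sets of members were tested, and their differences had the sign of the brightest in 12 with IL-4 and in 14 with IL-4d2.

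Upstream of these genes, 35 pathway genes that are no members were followed, of which 22 were tested. With IL-4 4 were higher and 0 lower (18.2%, against 13% of all genes in either direction and 6.34% higher). At an unadjusted p under 0.05, 7 were higher and 0 lower (31.8%, against 28.9% in either direction). With IL-4d2 0 were called and 4 were higher at an unadjusted p under 0.05 (18.2%, against 15.5%). The shares at an unadjusted p lie near those of all genes only where both directions are counted for all genes. In the higher direction alone the shares of pathway genes were larger than those of all genes. With IL-4 these were 7 of 22 against 1600 of 11984, and with IL-4d2 4 of 22 against 962 of 11984. Ikbke, a kinase that activates interferon regulatory factors, had 162, 97.6 and 57.7 in control mice, 271, 279 and 379 in IL-4 mice and 231, 178 and 281 in IL-4d2 mice, and rose 2.82-fold with IL-4 (1.50 ± 0.30, adjusted p = 0.00868). It passed the filter through the 6 cytokine arrays and 0 control arrays, so only where it was high. With no filter its adjusted p was 0.0194. Irf5, a regulatory factor of macrophages, had 329, 497 and 371 in control mice and 701, 796 and 597 in IL-4 mice and rose 1.73-fold (0.79 ± 0.16, adjusted p = 0.00916). The IL-4 and control mice did not overlap for either gene on these probe sets, and both calls were kept in all 9 fits with 1 array left out. A dimmer Irf5 probe set gave 0.26 with IL-4, with overlapping groups, and did not pass (adjusted p = 0.486).

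The phosphatases Ptpn2 and Ptpn6, which dampen JAK and STAT signalling, rose with IL-4 by 1.48-fold (0.57 ± 0.11, adjusted p = 0.00745) and 1.50-fold (0.59 ± 0.14, adjusted p = 0.0231). The Ptpn2 call was kept in all 9 fits with 1 array left out. The Ptpn6 call was absent with control mouse 1 (0.49) or 3 (0.58) left out, and with IL-4 mouse 1 (0.54) or 3 (0.54) left out. A dimmer Ptpn6 probe set gave 0.40 with IL-4, with overlapping groups, and did not pass (adjusted p = 0.154). Irf2, a repressor that competes with IRF1, was the 1 pathway gene called between the forms, with 1002, 1027 and 1033 in control mice, 1516, 1248 and 1163 in IL-4 mice and 866, 1023 and 861 in IL-4d2 mice. The IL-4 mice lay above the rest, and the difference of 0.50 ± 0.11 (adjusted p = 0.0484) kept its call in 1 of the 9 fits with 1 array left out, where it ran from 0.39 to 0.58. The call was also lost with no filter (adjusted p = 0.0753), array weights (0.0551), median centring (0.0663), the replicate block (0.067), the 2 compared groups alone (0.0799), a prior without trend (0.111) and control mouse 1 and IL-4 mouse 2 left out together (0.101).

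Of the 6 tested receptor chains, Ifnar1, Ifnar2, Ifngr1, Ifngr2, Ifnlr1 and Il10rb, 0 were called by their brightest probe set with either form, and 0 had an unadjusted p under 0.05 with IL-4. A dimmer probe set of Ifnar2 was called with IL-4 (0.50, adjusted p = 0.00778) while the brightest gave -0.09. Ifngr1, the ligand-binding chain of the interferon-gamma receptor, had 2550, 2537 and 2560 in control mice, 2476, 2641 and 2845 in IL-4 mice and 3164, 2921 and 3126 in IL-4d2 mice. Its IL-4d2 mice lay above the rest, at 0.27 ± 0.08 (adjusted p = 0.144). Ifng, the gene of interferon-gamma itself, failed the filter: its signals were 23.5, 26.7 and 16.0 in control mice, 127, 36.7 and 91.4 in IL-4 mice and 119, 36.0 and 82.3 in IL-4d2 mice. These lie above all controls in all 6 cytokine mice but below the array medians of 156 to 171, and without the filter the differences of 1.30 and 1.22 did not pass (adjusted p = 0.15 and 0.351).

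Markers of immune cells moved beside the interferon-induced genes. Of all genes, 6.34% were called higher and 6.63% lower with IL-4, and 0.859% and 0.401% with IL-4d2. Groups did not overlap on the higher side in 14.9% of all genes with IL-4 and 11.4% with IL-4d2. The summed signal of 6 B cell markers ran in the control, IL-4 and IL-4d2 mice from 2453 to 3168, 4072 to 4607 and 3534 to 4133, with 4 of 6 called higher with IL-4 and 1 with IL-4d2. For 7 macrophage and monocyte markers the sums were 9513 to 13004, 13165 to 15213 and 10566 to 10964, with 3 called higher and 1 lower with IL-4. For 6 dendritic cell markers they were 2440 to 2839, 4610 to 5449 and 2400 to 2937, with Itgax and Batf3 called higher with IL-4. Among the possible sources of interferon-gamma, 7 markers of natural killer and cytotoxic cells summed to 3598 to 4506, 3336 to 3883 and 4034 to 5120, with 0 of 6 tested called. The 9 T cell markers summed to 1600 to 1986, 1867 to 2427 and 2350 to 2580, with Cd4 and Trat1 below the array median on all 9 arrays. Of the 6 T cell markers tested, 0 were called with IL-4 and 1, Cd3g, was higher with IL-4d2 (0.86, adjusted p = 0.0399). The 6 markers of plasmacytoid dendritic cells, which make type I interferon, include the member Bst2 and summed to 9466 to 11204, 9700 to 10483 and 9481 to 10531, of which the bright Tcf4 made up most. Of the 4 tested, Ly6d was called higher with IL-4 (0.70, adjusted p = 0.0125) and 0 with IL-4d2, and in 3 every mouse given either form lay above every control. Among 4 tested plasma cell markers, Jchain rose 20.2-fold with IL-4 and 22.8-fold with IL-4d2, Mzb1 rose by log2 differences of 1.68 and 1.85, and Prdm1 was called lower with IL-4 (-0.55, adjusted p = 0.0173). Markers of lung epithelium, 8 in all, were bright in every lung, with sums from 160130 to 221560. The part of these cell types in the differences of the interferon-induced genes was not tested.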

How the data were processed

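Total RNA of each lung was labelled and read on an Affymetrix 3' expression array, per the labels' protocols. The deposited values are signal intensities on a linear scale for 45101 probe sets, and MAS5, GCOS and Affymetrix Expression Console 2.0 are named in the submitters' processing notes. From the values, the authors scaled each array as a whole: all 9 arrays have a 2% trimmed mean of 500.002, with medians from 156 to 171. A shift shared by most genes is therefore not visible. Probe sets were named from the platform annotation (34958 with 1 symbol, 932 with several, 9211 unnamed).

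Signals were taken as log2(signal + 16), which understates changes of dim probe sets. After leaving out 64 control probe sets and those whose signal exceeded its array's median on fewer than 3 arrays, 23824 remained. All 9 arrays entered 1 model (limma 3.58.1, R 4.3.3, functions lmFit and eBayes with a trend), leaving 6 residual degrees of freedom, with two-sided tests and Benjamini-Hochberg adjustment within each of 3 contrasts at 0.05. Each ± after a difference is the fit's standard error, and fold changes are on the log2(signal + 16) scale. Scripts were tested on simulated data. No replicate arrays held identical values. No label pairs the mice by replicate number, and correlations of same-numbered deviations ran from -0.07 to 0.12. Between IL-4 and IL-4d2 they were 0.116, 0.102 and 0.0707, while differently numbered ones ran from -0.0894 to -0.0134. Whether the numbers pair mice there was not settled, and the replicate block was run as an alternative.

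Every member is counted; named with each array's value are called members and, in role groups without a call, the brightest. Other genes with such values were chosen after their values were seen. The members and lists were chosen with earlier results of these data known. Alternatives covered the pseudocount, filter, scaling, array weights, prior, samples in the fit, probe set choice, replicate block and each array left out. Promoters and motif matches came from RefSeq sequences and were no part of the tests.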

Additional observations from a re-analysis of the deposited data

Results flagged for a closer look

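Results were listed here where the effects of IL-4 and IL-4d2 differed by the test of the difference itself. A dimmer probe set of the member Ifi27 was lower with IL-4 than with IL-4d2, with a log2 difference of -0.43 ± 0.09 (limma adjusted p = 0.0376). The brighter Ifi27 probe set gave -0.46 and did not pass (adjusted p = 0.0586). Irf2, the repressor that competes with IRF1 and no member of the list, was higher with IL-4 than with IL-4d2 by 0.50 ± 0.11 (adjusted p = 0.0484), a call lost in 8 of 9 fits with 1 array left out and under 7 further alternatives (adjusted p from 0.0551 to 0.111), beside the scalings to control transcripts. Groups of 3 mice are too small for a test of single outlying samples.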

How the results depend on the processing

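Of the 8 members called with IL-4, Oas1a, Oas2 and Parp14 kept the call in all 9 fits with 1 array left out, Irf1 in 8, Igtp and Iigp1 in 6, and Irgm2 and Oasl2 in 5. With 1 array left out, the call counts ran from 4 to 13 with IL-4, from 0 to 6 with IL-4d2 and from 0 to 1 between the forms. Counts in this paragraph are given without the share of all genes called in the same fit. A prior without trend gave 4 with IL-4 and 0 with IL-4d2. Leaving out control mouse 1 and IL-4 mouse 2 together gave 3 and 0, and array weights gave 2 with IL-4d2. Counting any tested probe set gave 2 with IL-4d2 and 1 between the forms, and centring each array on its median gave 1 between the forms. With mouse number as a replicate block the counts were 7, 1 and 0, and of the called members Oasl2 alone lost its call (adjusted p = 0.0501).

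Scaling to hybridisation controls gave 7 calls with IL-4, all lower, 3 with IL-4d2, all higher, and 18 between the forms, all lower with IL-4. Of all genes 35.5%, 1.42% and 53.1% were called in these comparisons, and their median moved to -0.45, 0.09 and -0.54. Scaling to poly-A controls gave 17, 6 and 38 in the same directions. Of all genes 80.4%, 2.34% and 95.8% were then called, with that median at -0.79, 0.27 and -1.06. The IL-4 difference of Irf1 was then -0.0067 and -0.35. Under poly-A scaling those of Igtp, Iigp1, Irgm2, Oasl2 and Parp14 were -0.031, -0.048, -0.14, -0.075 and -0.23, and those of Ptpn2 and Ptpn6 -0.22 and -0.20. The difference of Irf2 between the forms was -0.030 and -0.56. Dimmer probe sets of Ptpn2 (-0.025 and -0.37), Ifnar2 (-0.29), Irf3 (-0.17) and Socs3 (-0.19) reversed as well. Oas1a (0.41 and 0.06) and Oas2 (0.44 and 0.10) stayed positive but lost the call under both scalings. Differences of uncalled members entered these counts but are not given singly, since these scalings shift all genes together. The cause of these shifts was not tested.

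Outside the scalings to control transcripts, 14 of 105 uncalled differences of members passed under at least 1 alternative, and 0 of those reversed. Under those scalings members did reverse. With poly-A scaling all 38 were lower with IL-4 than with IL-4d2, though 21 had been positive. The differences of Ifit1 could not be told from its own spread between control mice.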
